A study of Mus musculus with 6 samples.

Results

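Heparan sulfate proteoglycans and the enzymes that build and trim their sugar chains were followed in 39 genes, taken by symbol out of 36291 gene rows. They cover 11 roles, from the enzymes that start and extend the chain to the sulfotransferases, the endosulfatases Sulf1 and Sulf2, heparanase, the glypicans, the syndecans and the secreted core proteins agrin and perlecan. RNA came from Swiss mouse embryos at E14.5, from telencephalic cells sorted for green fluorescence (eGFP). In both genotypes the fluorescence marked cells in which an Nkx2-1-iCre driver, active in the ventral forebrain, had acted. The 3 control libraries are labelled WT, and the 3 knockout (KO) libraries are of the conditional knockout of Sip1, the gene now called Zeb2, a DNA-binding transcriptional repressor. Each genotype has 1 library numbered K77, 1 numbered K79 and 1 numbered K80. Levels are CPM, read counts of a gene brought to a common library size after TMM scaling, and means carry the SD over n = 3 libraries. A positive log2 fold change means a higher level in KO, and SE is its standard error.

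Heparan sulfate is a long sugar chain attached to a few core proteins of the cell surface and matrix. Enzymes of the Golgi build a short linker, polymerise the chain, and then deacetylate, epimerise and sulfate it in patches, and the sulfated patches bind growth factors, morphogens, chemokines and guidance molecules. The 6-O-sulfates are added by the Hs6st enzymes in the Golgi and removed by the Sulf enzymes outside the cell. In the developing brain these chains are known to act in the distribution of secreted signals and in axon guidance and cell migration.

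The libraries held 8323531 to 11069437 gene counts. Zeb2 had a mean of 662 ± 133 CPM over the WT libraries and of 308 ± 35.6 CPM over the KO libraries, and its log2 fold change was -1.11 (edgeR adjusted p = 0.00116). The labels do not say which part of the gene was deleted, so these counts can include reads of the parts still transcribed. Each library held reads of all 9 genes listed for the sorted lineage, with 9725 to 11300 counts of Lhx6. Of the 9, 2 rose, Nkx2-1 (log2 fold change 0.70, edgeR adjusted p = 0.00301) and Gad2 (0.56, 0.00124). Dlx5 fell (-0.45, 0.0263), and with the K number as a block Lhx8 was also called higher (0.65, 0.0098). Of all tested genes 3.64% were called higher and 2.62% lower, and with the block 6.13% and 4.45%. Among the markers of other cell types, edgeR without the block called none of those of endothelial cells and pericytes, meningeal fibroblasts, microglia, blood, radial glia or cortical glutamatergic neurons. With the block it called 4 of these. They were the radial glial genes Slc1a3 (log2 fold change 0.63, adjusted p = 0.00651) and Vim (-0.22, 0.0218), the fibroblast collagen gene Col1a2 (1.34, 0.0221) and the embryonic globin gene Hbb-y (-1.04, 0.0217). DESeq2 also called Slc1a3 (adjusted p = 0.00296) and Vim (0.0278), and limma voom called Vim (0.0415). Col1a2, at 6 to 51 counts per library, was higher in every KO library than in any WT library. Vim and the radial glial gene Hes1 (-0.61, edgeR adjusted p = 0.093) were lower in every KO library than in any WT library. Over all tested genes, 11.8% lay above in this way and 11.4% below. WT K79 stood apart in its sex-linked genes, with 26109 Xist counts against 13 to 28 in the other libraries. It held 0 to 3 counts of each of 4 Y-linked genes against 310 to 1276. The members on the X chromosome are Hs6st2, Gpc3 and Gpc4, and their values without WT K79 are given with them. All 5 markers of oligodendrocyte precursors fell in KO, their summed level being 79.6 to 87.2 CPM in WT and 13.7 to 21.4 in KO, and Sox10 was at 0 counts in KO K80. The part of these marker differences in the members' values was not tested. In RNA from sorted cells, fewer cells of a type and less RNA per cell cannot be told apart.

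Of the 39 members 34 passed the filter on low counts, and in the unblocked edgeR fit 4 rose, 0 fell and 30 were not called at an adjusted p of 0.05. The 4 were the 6-O-sulfotransferase genes Hs6st1 and Hs6st3, the 6-O-endosulfatase gene Sulf1 and the glypican gene Gpc4. They are 11.8% of the tested members, where 3.64% of all 13835 tested genes were called higher and 2.62% lower. With the K number as a block, 8 of 34 rose and 0 fell, or 23.5%, where 6.13% of all tested genes were called higher and 4.45% lower. The added members were Hs6st2, Gpc3, the chain-initiating enzyme gene Extl3 and the syndecan gene Sdc3. In the authors' deposited table the same 8 members were called higher at its adjusted p under 0.05, where 3.37% of the genes with a value there were called higher. DESeq2 called these 8 as well, among 553 genes it called higher over the whole table. Every KO library lay above every WT library in 8 of 34 tested members, or 23.5%, against 11.8% of all tested genes. Every KO library lay below in 2 of 34, or 5.88%, against 11.4%. The median log2 fold change of the 34 was 0.06, beside -0.01 over all genes tested.

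**Figure D1:**
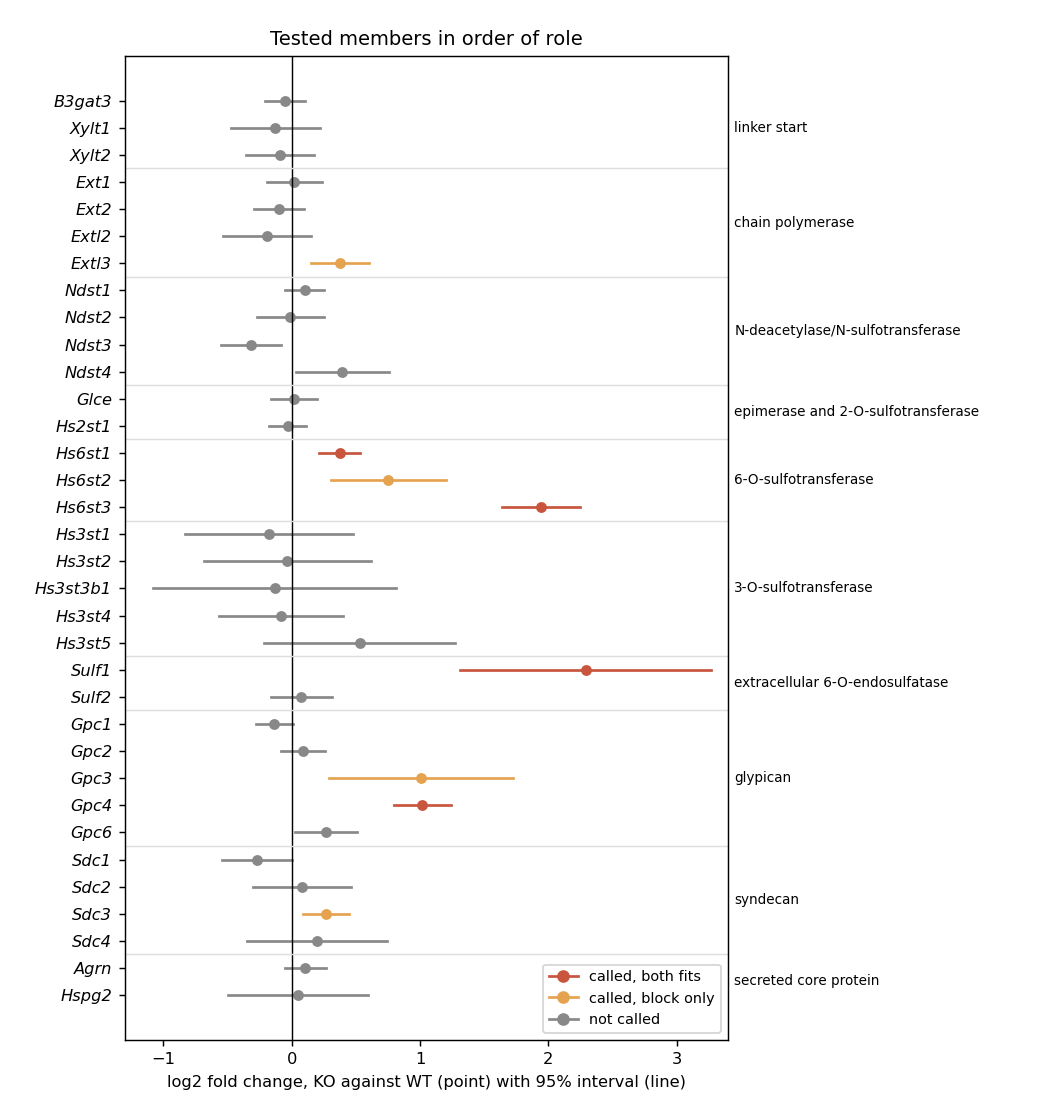
Log2 fold change of KO against WT (horizontal axis) for the 34 tested members, grouped by role, with the 95% interval from the unblocked edgeR fit as a line. Red marks the 4 members called without and with the K number as a block, orange the 4 called with the block alone, and grey the 26 called in neither fit. Sulf1 (2.29) and Hs6st3 (1.94) lie farthest to the right, and Ndst3 (-0.31) lies farthest to the left.

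All 3 genes of the 6-O-sulfotransferases, which add sulfate to the 6-O position of glucosamine, were higher in every KO library than in any WT library. Hs6st3 stood at 4.47, 4.41 and 4.84 CPM in WT K77, K79 and K80 and at 18.6, 17.7 and 16.6 CPM in the KO libraries in the same order. The lowest KO library was thus above 3 times the highest WT library, and the replicates lay close together. Hs6st3 rose 3.84-fold (log2 fold change 1.94, SE 0.136, edgeR adjusted p = 8.69e-05), and it was called with each library left out in turn (adjusted p up to 0.00111).

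Hs6st1, the most abundant of the 3 per length of exon, stood at 72.9, 80.4 and 76.99 CPM in the WT libraries and at 92.3, 103.5 and 102.8 CPM in the KO libraries. The groups did not overlap, but the difference was small, a 1.30-fold rise (log2 fold change 0.38, SE 0.0711, edgeR adjusted p = 0.0117). The call was lost without WT K77 (adjusted p = 0.0523), without KO K79 (0.0694) and without KO K80 (0.0733). In a later annotation, up to 389 exon bases of Hs6st1 are shared with a gene on the opposite strand, Gm37335, and reads from them cannot be told apart because how strand was treated is not stated in the labels.

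Hs6st2, which is X-linked, stood at 24.9, 30.4 and 16.2 CPM in WT K77, K79 and K80 and at 32.1, 43.8 and 44.1 CPM in KO. The highest WT library, WT K79, lay just under the lowest KO library, KO K77. The log2 fold change was 0.75 (SE 0.202, edgeR adjusted p = 0.0579), and with the block it was called (0.77, SE 0.172, adjusted p = 0.0203). Without WT K79 the log2 fold change was 0.98 (adjusted p = 0.0156), and it was also called without KO K77 (0.88, adjusted p = 0.0383).

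The endosulfatases, secreted enzymes that take 6-O-sulfates off finished chains, split. Sulf1 stood at 4.58, 12.7 and 4.08 CPM in WT K77, K79 and K80 and at 17.6, 49.3 and 37.7 CPM in KO. Its spread within a genotype was wide, with the K79 library the highest of each genotype. KO was above WT within each K number, by 1.83, 1.92 and 3.06 on a log2 scale with 0.5 CPM added. Sulf1 rose 4.90-fold (log2 fold change 2.29, SE 0.438, edgeR adjusted p = 0.0121). With the block the SE was 0.207 and the adjusted p was 0.000132. The unblocked call was lost without WT K77 (adjusted p = 0.0546), KO K79 (0.0628) or KO K80 (0.0568), and without WT K79 the log2 fold change was 3.02.

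Sulf2, the more abundant of the pair per length of exon, stood at 134.6, 175.8 and 147.3 CPM in WT and at 140.1, 175.0 and 167.4 CPM in KO. The genotypes overlapped, and the K79 library was the highest of each genotype here too. The log2 fold change was 0.08 (95% interval -0.16 to 0.32, edgeR adjusted p = 0.782).

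**Figure D2:**
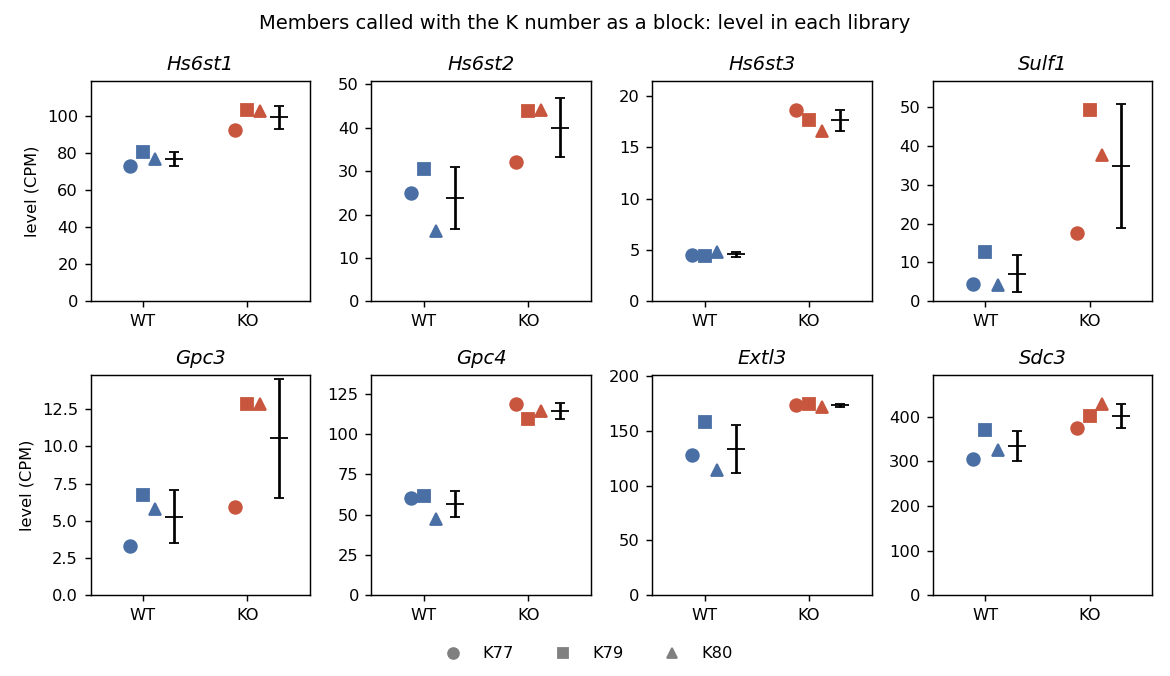
Level in CPM (vertical axis, from 0) of the 8 members called with the K number as a block, in each WT (blue) and KO (red) library, with symbols for the K number and bars for mean ± SD. Hs6st3 sits at 4.41 to 4.84 CPM in WT and 16.6 to 18.6 in KO, whereas the Gpc3 level of KO K77 (5.89 CPM) lies among the WT libraries.

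The make-up of these families was compared as level per length, in CPM per kilobase of exon in the later annotation, so the shares depend on its gene models (1708 exon bases for Hs6st3, 5542 for Hs6st1 and 7807 for Hs6st2). Hs6st3 made up 13.8, 12.3 and 15.1% of the per-length level of the 6-O-sulfotransferases in WT K77, K79 and K80. In KO it made up 34.4, 29.9 and 28.6% in the same order, and the groups did not overlap. The summed per-length level of the 3 genes was 19.6 ± 1.22 CPM per kilobase in WT and 33.4 ± 1.54 in KO. Sulf1 made up 1.74, 3.61 and 1.42% of the per-length level of the endosulfatases in WT and 6.12, 12.8 and 10.5% in KO. Sulf2 thus remained the main endosulfatase transcript in each library of either genotype. These shares carry no test.

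**Figure D3:**
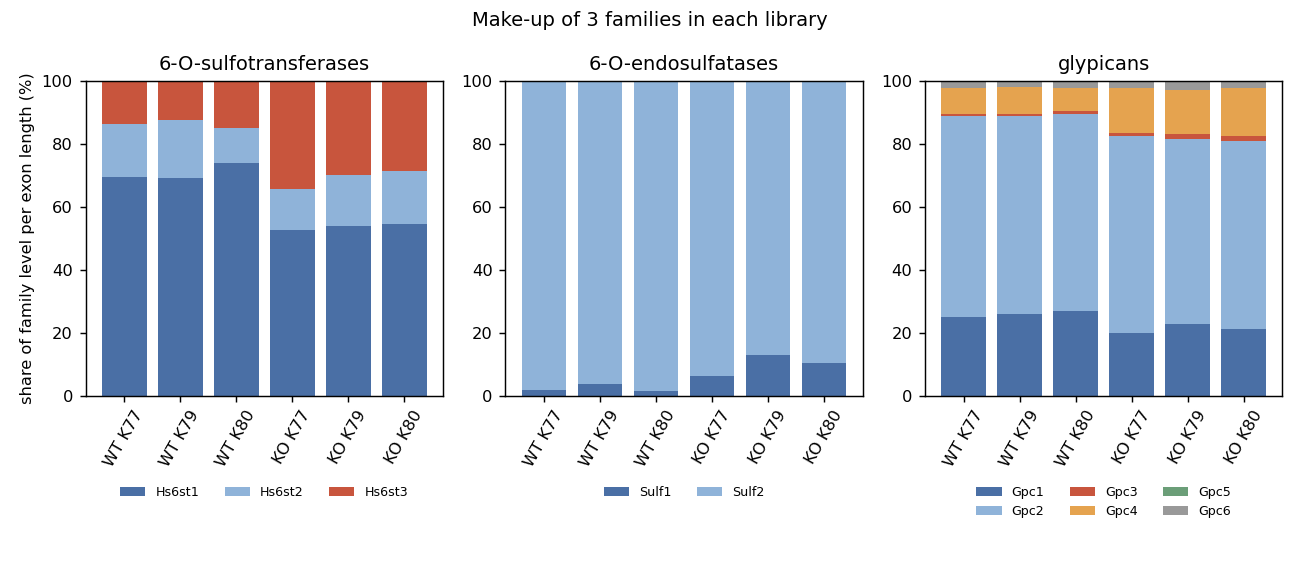
Share of each gene in the per-length level of its family (vertical axis, percent of CPM per kilobase of exon) in the 6 libraries, for the 6-O-sulfotransferases, the endosulfatases and the glypicans. The Hs6st3 band is 12.3 to 15.1% in WT and 28.6 to 34.4% in KO, and the Gpc4 band is 7.25 to 8.31% in WT and 14.0 to 15.1% in KO.

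Among the glypicans, core proteins held to the cell surface by a lipid anchor, Gpc4 rose and the most abundant ones did not pass the test. Gpc4 stood at 60.3, 61.9 and 47.1 CPM in WT K77, K79 and K80 and at 119.0, 109.1 and 114.4 CPM in KO. The groups lay far apart. Gpc4 rose 2.02-fold (log2 fold change 1.02, SE 0.100, edgeR adjusted p = 0.000308) and was called with each library left out (adjusted p up to 0.00349), with a log2 fold change of 1.09 without WT K79.

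Gpc3, whose gene is next to Gpc4 on the X chromosome, stood at 3.27, 6.72 and 5.79 CPM in WT and at 5.89, 12.8 and 12.9 CPM in KO. KO K77 lay below WT K79, so the groups overlapped, but KO was above WT within each K number, by 0.76, 0.88 and 1.09 on the log2 scale with 0.5 CPM added. The log2 fold change was 1.01 (SE 0.321, edgeR adjusted p = 0.111), and with the block Gpc3 was called (1.00, SE 0.158, adjusted p = 0.00353). Without WT K79 the log2 fold change was 1.22 (adjusted p = 0.0856), and the gene was called without KO K77 (1.28, adjusted p = 0.019).

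Gpc2, a glypican of developing neurons, was the most abundant member in reads per length. It stood at 755.9, 753.6 and 655.3 CPM in WT and at 831.2, 739.6 and 727.8 CPM in KO, overlapping, with a log2 fold change of 0.09 (95% interval -0.08 to 0.26, edgeR adjusted p = 0.626). Gpc1 averaged 358 ± 17.7 CPM over WT and 326 ± 16.7 over KO (log2 fold change -0.13, adjusted p = 0.299). Gpc6 differed by 0.27 (adjusted p = 0.208). In the later annotation, exons of Gpc1 share stretches of up to 977 bases with Ankmy1 on the opposite strand. Exons of Gpc2, 4274 bases in all, share stretches of up to 915 bases with Gm43720 on the same strand. The levels and ranks of both genes are thus uncertain. Gpc5 was too low to test, with 2 to 9 counts per WT library and 3 to 5 per KO library. Gpc4 made up 7.93 ± 0.592% of the per-length level of the glypicans in WT and 14.53 ± 0.567% in KO.

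Because Zeb2 is known to bind DNA at CACCT motifs, the 250 bases before the RefSeq start (GRCm38.p6) were searched for CACCT on both strands, and for CACCTG, a longer motif that contains it. RefSeq promoter entries matched 29 of the 39 members, 34 entries in all. No entry was found for Sulf1 or Extl3. The sequences of the 2 adjacent glypican genes that were higher with the block are shown with that of Hs6st3, the member with the lowest p, and 1 of 2 starts of Sulf2, which was not called. They are written 5′ to 3′ on the gene's strand, with CACCT or its reverse complement in capitals. The RefSeq bases after the start were found near the start of a GENCODE transcript of the gene for Gpc4 and Sulf2 but not for Gpc3 and Hs6st3, so distances in those windows rest on the RefSeq start alone.
Gpc4 (chrX:52164924-52165173, minus strand): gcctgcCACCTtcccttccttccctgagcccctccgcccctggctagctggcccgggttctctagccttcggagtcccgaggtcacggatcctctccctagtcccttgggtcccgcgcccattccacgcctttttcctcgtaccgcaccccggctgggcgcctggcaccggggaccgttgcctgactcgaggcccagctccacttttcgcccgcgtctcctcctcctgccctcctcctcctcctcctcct
Gpc3 (chrX:52613975-52614224, minus strand): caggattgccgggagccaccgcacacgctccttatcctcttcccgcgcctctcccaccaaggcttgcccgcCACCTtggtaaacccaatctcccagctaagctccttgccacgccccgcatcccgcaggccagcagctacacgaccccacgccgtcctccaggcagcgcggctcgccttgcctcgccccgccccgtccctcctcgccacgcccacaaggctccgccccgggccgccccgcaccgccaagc
Hs6st3 (chr14:119138015-119138264, plus strand): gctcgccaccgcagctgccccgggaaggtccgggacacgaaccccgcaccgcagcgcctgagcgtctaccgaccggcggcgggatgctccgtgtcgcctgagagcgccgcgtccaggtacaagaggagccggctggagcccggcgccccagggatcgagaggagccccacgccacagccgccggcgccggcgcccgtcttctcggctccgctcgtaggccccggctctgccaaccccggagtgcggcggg
Sulf2 (chr2:166155684-166155933, minus strand): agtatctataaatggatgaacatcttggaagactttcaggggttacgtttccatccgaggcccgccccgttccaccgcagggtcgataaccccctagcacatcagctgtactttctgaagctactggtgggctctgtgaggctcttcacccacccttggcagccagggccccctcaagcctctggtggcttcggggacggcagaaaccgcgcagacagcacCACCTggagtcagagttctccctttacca

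Gpc4 held 1 match, 244 bases before its start, and Gpc3 held 1, 179 bases before its start. Neither was part of a CACCTG. The Hs6st3 window held no match, and the windows of Hs6st1, Hs6st2 (2 starts) and Sdc3 held none either. The printed window of Sulf2 held 1 match, 29 bases before its start, which was a CACCTG, and the window of its other start held none. Over all members 41.2% of entries held CACCT, beside 46.0% of the 32851 entries in the table, and 5.88% held CACCTG, beside 17.2%. A match here is a run of letters, not a measured binding site, and the window covers only the bases next to the start.

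Syndecans are core proteins that span the membrane. Sdc3, which made up 88.4 ± 0.337% of the per-length level of the syndecans in WT, stood at 305.6, 370.6 and 324.9 CPM in WT and at 375.6, 401.1 and 429.4 CPM in KO. The highest WT library, WT K79, lay just below the lowest KO library. The log2 fold change was 0.27 (SE 0.0814, edgeR adjusted p = 0.0918), and with the block it was called (0.27, SE 0.0618, adjusted p = 0.0223), as it was without WT K79 (0.35, adjusted p = 0.0174). In the later annotation up to 222 exon bases of Sdc3 are shared with genes on the opposite strand. Overlaps also touch the tested members Sulf2 (up to 154 bases), Hs3st2 (up to 276), Hs3st4 (up to 130) and Glce (up to 77). Sdc1 was below WT in every KO library, at 14.1 ± 0.434 CPM in WT and 11.7 ± 1.02 in KO, but was not called (-0.27, adjusted p = 0.284). Sdc2 (0.08) and Sdc4 (0.20) overlapped between genotypes and were not called.

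Of the enzymes that start and extend the chain, Extl3, which is known to add the first chain sugar to the linker, was called in the blocked fit, and no other was called in either fit. Extl3 stood at 127.8, 157.9 and 114.3 CPM in WT K77, K79 and K80 and at 173.2, 174.8 and 172.0 CPM in KO. The KO libraries were close together and above all WT libraries, of which WT K79 was the highest. The log2 fold change was 0.38 (SE 0.100, edgeR adjusted p = 0.0564), and with the block it was called (0.39, SE 0.0783, adjusted p = 0.0124). Without WT K79 it was 0.52 (adjusted p = 0.00171).

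The polymerase subunit genes Ext1 (0.02) and Ext2 (-0.10) and the related Extl2 (-0.19) overlapped between genotypes and were not called. Extl1 was not tested, with 1, 8 and 3 counts in the WT libraries and 9, 8 and 9 in KO. The linker enzyme gene B3gat3 stood at 61.4, 57.2 and 62.8 CPM in WT and at 59.9, 56.7 and 58.5 CPM in KO, with a log2 fold change of -0.05 (95% interval -0.21 to 0.11). The xylosyltransferase genes Xylt1 (-0.13) and Xylt2 (-0.09), whose products attach the linker to the core protein, were not called.

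No gene of the enzymes that deacetylate, N-sulfate, epimerise or 2-O-sulfate the chain was called in either edgeR fit. Ndst1, the most abundant per length of the enzymes that deacetylate and N-sulfate glucosamine, stood at 208.6, 214.7 and 195.5 CPM in WT and at 227.6, 233.2 and 203.2 CPM in KO. Its genotypes overlapped (log2 fold change 0.10, 95% interval -0.05 to 0.25, edgeR adjusted p = 0.496). Ndst3 lay below WT in every KO library, at 28.3 ± 0.445 CPM in WT and 22.7 ± 2.77 in KO (-0.31, adjusted p = 0.126, and 0.0794 with the block). Ndst4 lay above WT in every KO library (0.40, adjusted p = 0.218, and 0.0979 with the block), and Ndst2 overlapped (-0.01). Hs2st1, the sole 2-O-sulfotransferase gene, stood at 191.7, 171.6 and 197.8 CPM in WT and at 180.6, 180.6 and 187.6 CPM in KO (-0.03, 95% interval -0.17 to 0.11). Glce, which encodes the epimerase acting before it, differed by 0.02 (95% interval -0.16 to 0.20).

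The 3-O-sulfotransferases make the rarest modification of the chain, and none of their genes was called. Per length of exon, Hs3st4 ranked 18 of the 39 members in WT, and the others of this family ranked 25 to 39. Hs3st4, the most abundant per length, stood at 14.502, 16.8 and 18.6 CPM in WT and 12.9, 22.1 and 12.1 CPM in KO. Its KO libraries lay on both sides of the WT range (log2 fold change -0.08, edgeR adjusted p = 0.891). Hs3st1 (-0.18), Hs3st2 (-0.03), Hs3st3b1 (-0.13) and Hs3st5 (0.53) were not called either. The 95% interval of Hs3st3b1 (-1.08 to 0.82) takes in a fall of 1 on the log2 scale, and that of Hs3st5 (-0.21 to 1.27) a rise of 1. Hs3st3a1 and Hs3st6 had 4 and 2 counts in all 6 libraries together. Hpse, the gene of heparanase, which cuts the chain, had 7, 2 and 2 counts in WT and 2, 3 and 5 in KO, too few to test.

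The secreted core proteins were not called. Agrn, which encodes agrin, stood at 856.0, 822.5 and 721.5 CPM in WT and at 876.0, 883.1 and 823.2 CPM in KO, overlapping (log2 fold change 0.11, 95% interval -0.05 to 0.27, edgeR adjusted p = 0.502). Hspg2, which encodes perlecan, averaged 21.0 ± 5.99 CPM over WT and 21.7 ± 6.26 over KO (0.05, adjusted p = 0.944). Over the 26 members called in neither fit, log2 fold changes ran from -0.31 (Ndst3) to 0.53 (Hs3st5), and 24 of the 26 had an interval within -1 to 1.

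Ranked by level per exon length, the highest members in WT were Gpc2 (169 ± 13.4 CPM per kilobase), Agrn (86.2 ± 7.54), Gpc1 (69.4 ± 3.43) and Sdc3 (55.7 ± 5.57). The next 6, from Sulf2 (26.0) through Ndst1, B3gat3, Hs2st1 and Extl3 to Gpc4 (21.3), lay close together. In KO Gpc4 moved from rank 10 to 5 of the 39 members, Hs6st3 from 24 to 12 and Sulf1 from 32 to 23. Gpc2 and Agrn kept ranks 1 and 2. These ranks are a description and carry no test.

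**Figure D4:**
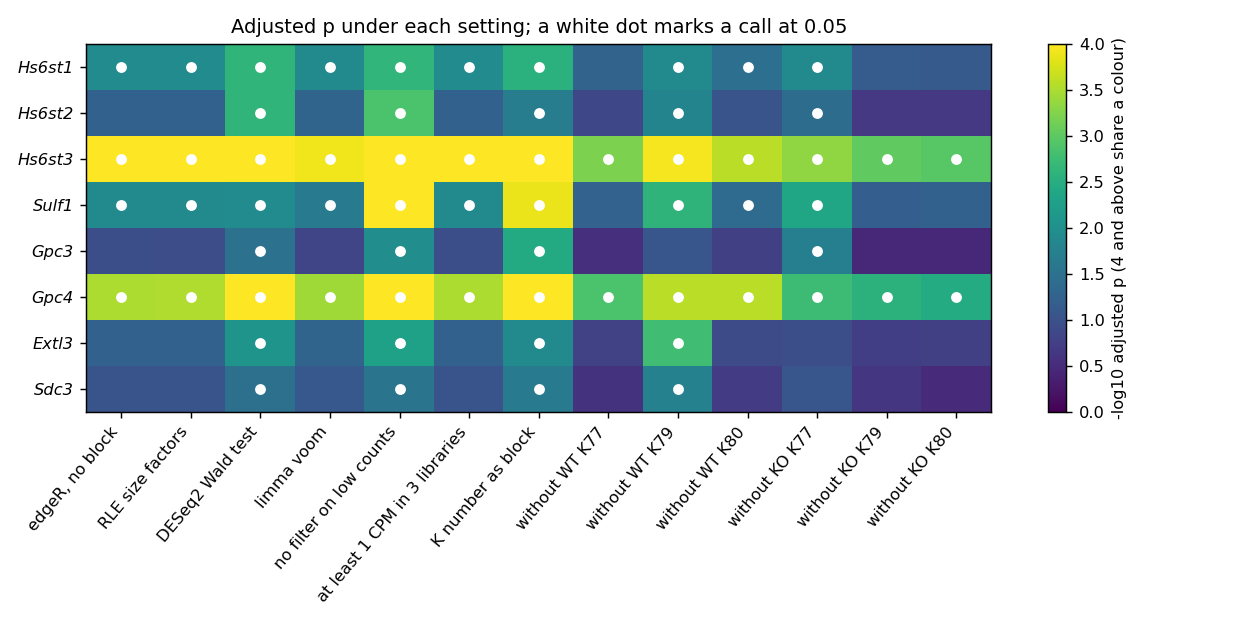
Adjusted p, as -log10 in colour, of the 8 members (vertical axis) under each of the 13 settings (horizontal axis), with a white dot for a call at 0.05. Hs6st3 and Gpc4 are called in every column, and Hs6st1 and Sulf1 in all but 3, those that leave out WT K77, KO K79 and KO K80.

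Other genes around heparan sulfate were taken from 6 lists chosen by function. The median log2 fold changes of their tested genes ran from -0.08 (chondroitin sulfate enzymes) to 0.08 (shedding and binding partners), beside -0.01 over all genes tested. Of 17 tested genes of sugar and sulfate donors, the linker and related enzymes, 3 rose, 0 fell and 14 were not called. Of all tested genes 3.64% were called higher and 2.62% lower. Acpl2, now called Pxylp1, encodes the phosphatase that takes the phosphate off the linker xylose. It stood at 125.8, 115.6 and 133.7 CPM in WT and at 285.1, 235.9 and 240.3 CPM in KO, with no overlap. Acpl2 rose by 1.02 on the log2 scale (SE 0.0845, edgeR adjusted p = 0.00013). B3gat2 (0.59, adjusted p = 0.0182), a glucuronyltransferase gene related to B3gat3, and Impad1 (0.24, adjusted p = 0.0396), a phosphatase that clears the by-product of sulfation, rose too. Impad1 lost its call with any 1 library left out (adjusted p 0.0638 to 0.167), and B3gat2 without KO K79 (0.0827) or KO K80 (0.0585). The kinase gene of the same xylose, Fam20b, was not called (0.18, adjusted p = 0.146).

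Of 11 tested genes of lysosomal breakdown 0 were called by edgeR, with 2 at an unadjusted p under 0.05 and 1 call each by DESeq2, limma voom and the blocked fit. That gene was Ids, which encodes iduronate sulfatase (0.22, edgeR adjusted p = 0.0568, and 0.0226 with the block). Gusb, the other, differed by 0.46 (adjusted p = 0.163). Of 6 tested genes of other proteins that can carry heparan sulfate 0 were called by edgeR, DESeq2 or limma voom, with 2 at an unadjusted p under 0.05. These were the semaphorin and VEGF receptor gene Nrp1 (0.63, adjusted p = 0.117) and Spock2 (0.48, adjusted p = 0.158), both called with the block (adjusted p = 0.00944 and 0.00064). With the block 6.13% of all tested genes were called higher. Nrp1 was also called without WT K79 (adjusted p = 0.00238).

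Of 16 tested genes of shedding and binding partners 1 rose, 0 fell and 15 were not called. The shares over all tested genes were 3.64% higher and 2.62% lower. Ptn, which encodes pleiotrophin, a secreted ligand of syndecan-3, stood at 82.3, 83.9 and 80.9 CPM in WT and at 105.8, 106.5 and 105.8 CPM in KO. Both genotypes had a narrow spread, and Ptn rose by 0.36 on the log2 scale (SE 0.0567, edgeR adjusted p = 0.00406). With the block, Gpr158, which encodes a receptor that binds glypican-4, was called higher (0.55, adjusted p = 0.0417) and the agrin receptor gene Lrp4 lower (-0.59, adjusted p = 0.0283). Without the block their adjusted p was 0.0703 and 0.182. The block called 6.13% of all tested genes higher and 4.45% lower.

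Chondroitin sulfate is the other main sugar chain grown on the same linker. Of 14 tested enzyme genes 1 rose, 3 fell and 10 were not called, where 3.64% of all tested genes were called higher and 2.62% lower. Dsel, an epimerase gene of dermatan sulfate, stood at 34.8, 40.0 and 44.0 CPM in WT and at 25.5, 24.6 and 25.2 CPM in KO. It fell by 0.66 on the log2 scale (SE 0.100, edgeR adjusted p = 0.00348), with no overlap. The sulfotransferase genes Chst15 (-0.65, adjusted p = 0.00663) and Chst3 (-0.77, adjusted p = 0.0202) fell as well. Csgalnact1, whose product starts the chondroitin chain, rose by 1.12 (adjusted p = 0.0184) from 2.76 ± 0.745 CPM. Csgalnact1 lost its call without any library but WT K79 or KO K77 (adjusted p 0.0544 to 0.0945), and Chst3 without WT K77 (0.0516) or KO K80 (0.103). Of 8 tested core protein genes 1 fell and 7 were not called. That gene was Cspg4 (-2.00, adjusted p = 0.000766), which is itself 1 of the 5 oligodendrocyte precursor markers that fell. With the block Chsy3, a chondroitin polymerase gene, was also called lower (-0.85, adjusted p = 0.0376), against 0.0671 without it.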

How the data were processed

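Members were matched by symbol in the authors' count table of the series, which held the same values as the single-library files in all 36291 rows. The deposited counts are whole read counts per gene, not normalized. TopHat 1.2.0, HTSeq 0.5.3p3 and DESeq 1.2.2 appear in the submitters' processing notes beside the build mm9, without saying which step each served. For the annotation counted and any use of strand, nothing was given in the sources used here. Reads outside genes (19.7 to 21.8% of counts) and ambiguous reads stayed out of library sizes.

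The authors' deposited table gives, per the file headers, size-factor scaled mean counts (a signal, not used for results), the ratio of the group means, that ratio on a log2 scale, p-values before and after adjustment and a residual variance score that was not used. Its group A matched the scaled WT means in 100% of rows, within a relative tolerance of 0.001.

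Tests used R 4.3.3 and edgeR 4.0.16 (TMM, filterByExpr with a minimum count of 10, quasi-likelihood test, Benjamini-Hochberg threshold of 0.05 across the 13835 genes kept). SEs were derived from the F statistic of each gene and may understate the error of genes with few reads. Scripts were tested on simulated data. The common biological coefficient of variation was 9.26%. Nothing in the labels states that each library is a separate embryo, so a p-value covers the variation among these libraries alone, which may be technical. Deviations from the genotype mean correlated between libraries of the same K number (Pearson across genes 0.256, 0.197 and 0.175). Between libraries of different K numbers the values ran from -0.176 to -0.00936. Deviations within a genotype cancel out for each gene, so positive values for the same K number make these negative on average. The negative values thus add no separate support for the pairing. The K number was taken to pair the libraries from these same data, since the labels state no block.

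Alternatives were RLE size factors, DESeq2 1.42.0, limma 3.58.1 voom, no filter, a filter of 1 CPM in 3 libraries, a block on the K number and leaving out each library. Exon lengths, overlaps and X linkage came from GENCODE M21, a later build than mm9. All 39 symbols were found in the reference names. Members and lists were chosen with earlier results of these data known. Values are given per library for members called in the unblocked or blocked fit or the authors' table and for the most abundant member of each role. In each list up to 4 called genes by lowest p are named, or 2 where none was called. The genes Fam20b, Lrp4, Gpr158 and Chsy3 fall outside that rule and were chosen after their values were seen.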

Additional observations from a re-analysis of the deposited data

How the results depend on the processing

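Members called higher numbered 8 with DESeq2, with no filter on low counts and with the K number as a block. These were the same 8 genes each time. Over all genes, 553 were called higher with DESeq2, 742 with no filter and 848 with the block, beside 504 in the unblocked fit. With RLE size factors, limma voom or 1 CPM in 3 libraries the number was 4, the same 4 as in the unblocked fit. No member was called lower under any of these settings. With each library left out in turn, 2 to 7 members were called higher, with 2 (Hs6st3 and Gpc4) on leaving out WT K77, KO K79 or KO K80 and 7 without WT K79. Over all genes, where 504 were called higher and 363 lower without the block, the number called was 1463 with it (848 higher, 615 lower) and 445 to 1044 with a library left out (270 to 645 higher, 175 to 399 lower), and 546 were lower with no filter. In the 6 other lists together 5 genes rose, against 8 with no filter, 9 with the block and 2 to 8 with a library left out. In the same lists 4 genes fell, against 6 with no filter. With the block 4 chondroitin sulfate enzyme genes, 1 of their core protein genes and 1 partner gene were called lower. The block changed no other member's call.

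Sign changes, none at an adjusted p under 0.05, were seen in 11 members. With limma voom Ndst2 was at 0.00054, Hs3st2 at 0.0226 and Hs3st3b1 at 0.0137. With a library left out, log2 fold changes ran from -0.0483 to 0.11 for Ext1, -0.13 to 0.0801 for Ndst2, -0.0246 to 0.0635 for Glce, -0.0910 to 0.00861 for Hs2st1, -0.43 to 0.0863 for Hs3st1, -0.29 to 0.20 for Hs3st2, -0.40 to 0.46 for Hs3st3b1, -0.42 to 0.0794 for Hs3st4, -0.00578 to 0.19 for Sulf2, -0.0299 to 0.21 for Sdc2 and -0.18 to 0.26 for Hspg2. The cause was not tested. Depth limits the 5 members that were not tested, with 2 to 38 counts in all libraries together.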

Other observations

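Perlecan (Hspg2) is a basement membrane proteoglycan known from blood vessels, and its level was read beside the vessel markers. In WT K77, K79 and K80 Hspg2 stood at 24.6, 24.2 and 14.0 CPM and the 11 endothelial and pericyte markers summed to 45.0, 50.1 and 28.1 CPM. In KO Hspg2 stood at 22.0, 27.8 and 15.3 CPM and the markers summed to 38.7, 40.6 and 27.2 CPM. Both were lowest in the K80 library of each genotype, and 0 of the 10 markers tested were called between the genotypes. The summed markers of meningeal fibroblasts, blood, oligodendrocyte precursors and radial glia were also lowest in K80 of each genotype. Those of microglia, cortical glutamatergic neurons and the sorted lineage were not lowest there in both genotypes. The low K80 level was thus not particular to the vessel markers. Whether vessel cells carried the Hspg2 reads was not tested.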
